A study of Mus musculus with 16 samples.

Results

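The interaction of in-utero and adult exposure to second-hand smoke (SHS) compares, gene by gene, the response of the lung to adult SHS in mice that had breathed air before birth with the response in mice that had met SHS before birth. It was taken as the difference (SS minus SA) minus (AS minus AA) on the log2 scale, where the first letter of a group is the exposure in utero, the second letter is the exposure as an adult, A is filtered air and S is SHS. Each gene was read at its brightest probe set, the one with the highest mean over all samples. Of 18193 genes with a symbol of their own on the array, 21 (0.115%) had a Benjamini-Hochberg adjusted p under 0.05 for the interaction in limma. In 6 of these genes the adult response was more positive after in-utero SHS, and in 15 it was more negative. Of the 59 probe sets of any name that passed, 37 were more positive, so this balance describes the brightest probe sets. Sorted by the size and sign of both adult responses, 5 genes were blocked (the larger response was in AS), 14 were gained (the larger response was in SS) and 2 were reversed (the responses had opposite signs, and the smaller was at least 0.5 times the larger in size).

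The arrays held total RNA from left lungs of 15-week-old male Balb/c mice, an inbred strain, with 4 arrays in each of the groups AA, AS, SA and SS and no allele or agent other than the smoke. SHS was sidestream smoke, the smoke that leaves the burning tip of a cigarette, at 10 mg of suspended particles per m3 given 5 hours daily, 7 days per week. The labels call the replicates biological and give no litter, batch, hour of collection or length of either exposure, so litters shared within a group could not be entered in a fit. AS replicates 3 and 4 were nearly the same array, as were SS replicates 1 and 2: over variable probe sets their root mean square differences were 0.0983 and 0.0721, and those of the 22 other pairs within a group were 0.313 to 0.739. The design text gives 4 animals per group, and whether each such pair is 1 animal was not tested. Their averages stood for 1 sample each, so that AA had 4 samples, AS 3, SA 4 and SS 3. Array medians lay between 6.90 and 6.93 on the log2 scale. The alveolar type 2 cell marker Sftpc read 15.01 to 15.10, the club cell marker Scgb1a1 14.91 to 14.98, the alveolar type 1 cell marker Ager 14.29 to 14.64 and the endothelial marker Pecam1 12.01 to 12.51 over all 14 samples, while the alveolar macrophage marker Marco, at 5.10 to 6.13, lay below every array median. The heart muscle gene Myh6, which mouse pulmonary veins also express, read 11.11 to 12.43.

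Cells answer stress, growth factors and shear with a fast wave of immediate early genes, many of them transcription factors that need no new protein to be switched on. The same signals run through the MAP kinases, whose phosphatases, the Dusp proteins, are induced as brakes, and through the integrated stress response, which slows protein synthesis until Ppp1r15a helps to restore it. Proteins of the CREB and ATF family, to which Creb5 belongs, bind the cAMP response element.

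The 250 bases before the gene starts of Plk2, Ppp1r15a and Creb5 are shown because these were the members with a window that held the full cAMP response element, TGACGTCA, given in capitals. They come from RefSeq on build GRCm38.p6 and run 5′ to 3′ along the gene: Plk2 at chr13:110394794-110395043 on the plus strand, Ppp1r15a at chr7:45526269-45526518 on the minus strand and Creb5 at chr6:53287053-53287302 on the plus strand.
Plk2: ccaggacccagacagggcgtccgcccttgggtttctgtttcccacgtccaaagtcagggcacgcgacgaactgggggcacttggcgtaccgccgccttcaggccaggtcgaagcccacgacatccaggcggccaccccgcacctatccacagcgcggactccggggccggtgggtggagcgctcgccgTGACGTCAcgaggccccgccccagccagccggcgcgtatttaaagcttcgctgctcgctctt
Ppp1r15a: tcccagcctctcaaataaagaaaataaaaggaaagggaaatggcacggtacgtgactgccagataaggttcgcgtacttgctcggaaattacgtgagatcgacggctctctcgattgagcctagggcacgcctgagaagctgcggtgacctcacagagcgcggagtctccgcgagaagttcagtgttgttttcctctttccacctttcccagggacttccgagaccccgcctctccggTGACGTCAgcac
Creb5: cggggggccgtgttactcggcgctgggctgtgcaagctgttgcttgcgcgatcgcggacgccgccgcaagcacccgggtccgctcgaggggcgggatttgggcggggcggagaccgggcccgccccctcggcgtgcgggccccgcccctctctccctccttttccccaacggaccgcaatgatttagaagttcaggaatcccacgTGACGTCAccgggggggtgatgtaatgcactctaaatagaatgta
Windows of 19 of the 21 genes were searched, 24 windows in all because some genes have several starts. Creb5 has a second start, whose window is not shown and did not hold the element. No window of Klf10 or Zfp608 was among the 24, so the counts of the 24 windows do not cover these genes. The windows of all genes were counted without leaving out any. The element, searched on both strands and equal to its own reverse complement, lay in 3 of the 24 windows, against 508 of 32851 windows of the same length over all genes (1.546%). In Creb5 it shares the bases TG with an E-box, CACGTG, a motif held by 3 of the 24 windows and by 6.021% of all. The core of the aryl hydrocarbon receptor site, GCGTG, lay in 9 of 24 windows against 28.16% of all, and the GC box, GGGCGG, in 10 against 32.74%. The AP-1 site TGANTCA was in 1 of 24 windows (6.749% of all), the TATA box TATAAA in 1 (12.37%) and the CArG box in 1 (1.467%). A match describes these letters and is neither a shown site nor a cause.

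Adult SHS changed 204 genes after in-utero air (AS minus AA, 1.12% of those tested, 108 higher and 96 lower) and 348 genes after in-utero SHS (SS minus SA, 1.91%, 159 higher and 189 lower), each at an adjusted p under 0.05 in limma. The in-utero exposure seen in adults kept in air (SA minus AA) gave 0 genes (0%), the smallest adjusted p was 0.322, 900 genes had an unadjusted p under 0.05, and the same model without moderation gave 1 gene. In adults exposed to SHS it gave 139 genes (SS minus AS, 0.764%, 54 higher and 85 lower). The interaction gave 21 genes, with 1335 genes at an unadjusted p under 0.05 and a median of -0.02 over all genes.

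Genes called in 1 adult comparison mostly had the same sign in the other, measured in samples that the 2 comparisons do not share. Over all genes the median was 0.016 in AS minus AA and -0.007 in SS minus SA. The share of all genes with each sign was not counted. Of the 108 genes that rose in AS, 85 (78.7%) were above 0 in SS minus SA. Past the threshold 13 rose there, against 0.874% of all genes, and 1, Hlx, fell, against 1.04%. The median of the 108 was 0.39 in AS minus AA, the comparison that chose them, and 0.14 in SS minus SA. Of the 96 genes that fell in AS, 84 (87.5%) were below 0 in SS minus SA, with medians of -0.42 and -0.19. In SS minus SA 10 of them fell past the threshold, against 1.04% of all genes. Among the 159 genes that rose in SS, 127 (79.9%) were above 0 in AS minus AA, and among the 189 that fell in SS, 156 (82.5%) were below 0. The interaction passed in 7 of the 204 genes called in AS minus AA (6 that rose and 1 that fell). It passed in 15 of the 348 called in SS minus SA (5 that rose and 10 that fell), against 0.115% of all genes. The interaction is computed from those same samples, so these counts are a description. The plot of both adult effects shows the 21 genes against all others.

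**Figure D1:**
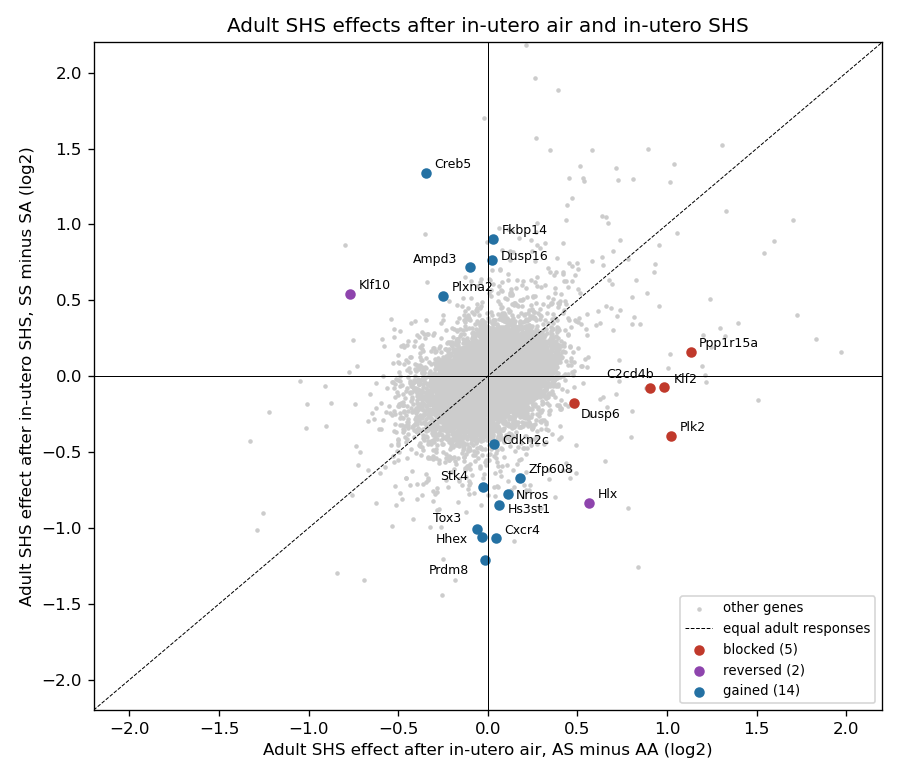
Adult SHS effect after in-utero air (AS minus AA, horizontal axis, log2) against the adult SHS effect after in-utero SHS (SS minus SA, vertical axis, log2) for every gene at its brightest probe set. The dashed line marks equal responses, and the 5 blocked genes lie to the right near the horizontal zero line, the 14 gained genes lie along the vertical zero line and the 2 reversed genes lie in the quadrants of opposite sign; 1 gene falls outside the plotted range.

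Blocked responses were all rises. Plk2, Klf2, C2cd4b, Ppp1r15a and Dusp6 rose 1.39- to 2.19-fold in AS over AA and did not pass the threshold in SS minus SA, where their differences ran from -0.39 to 0.16 on the log2 scale. The 3 AS values lay above every value of the other groups in 5 of the 5 genes, as they did, in either direction, in 4.62% of all genes. AS and AA alone did not overlap in 16.6% of all genes. These counts describe how the genes were sorted. Since a piece of whole lung was measured, more cells of a type and more RNA per cell cannot be told apart.

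Ppp1r15a encodes the subunit that directs protein phosphatase 1 to the translation factor eIF2alpha and so ends the integrated stress response. It read 9.14, 9.22, 9.28 and 9.15 in AA and 10.15, 10.44 and 10.40 in AS, then 9.02, 8.85, 9.09 and 8.98 in SA and 9.16, 9.31 and 8.96 in SS, all on the log2 scale. The AS lungs stood above all others, and SA and SS overlapped. The adult effect was 1.13 ± 0.09 (standard error) after in-utero air and 0.16 ± 0.09 after in-utero SHS, and the interaction was -0.97 ± 0.13 (limma, adjusted p = 0.00822). Its promoter is 1 of the 3 shown above with the cAMP response element.

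Plk2, a polo-like kinase that is induced by serum and by p53, gave the most negative interaction of the 21 genes, at -1.42 ± 0.24 (limma, adjusted p = 0.0399). Its log2 values were 10.66, 10.95, 11.13 and 10.82 in AA, 11.73, 12.32 and 11.69 in AS, 10.87, 11.00, 10.91 and 10.51 in SA and 10.23, 10.77 and 10.27 in SS. AS lay highest, and SS overlapped SA, with SS minus SA at -0.39 and an adjusted p of 0.312. AS replicate 2 was the highest sample. A dimmer probe set of Plk2, with a mean of 5.32, had an interaction of -0.08.

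Klf2 is a transcription factor that endothelium raises under flow and that keeps lymphocytes quiescent. Klf2 read 12.04, 12.05, 12.30 and 11.99 in AA, 13.01, 13.03 and 13.19 in AS, 12.03, 12.14, 12.16 and 11.67 in SA and 11.99, 12.14 and 11.65 in SS. AS was higher than AA (1.98-fold), whereas SA and SS overlapped, with SS minus SA at -0.07 ± 0.13. The interaction was -1.05 ± 0.18 (limma, adjusted p = 0.0399).

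C2cd4b, a nuclear protein of the C2 domain family that inflammatory cytokines induce in endothelial cells, read 8.25, 8.49, 8.32 and 8.17 in AA and 9.32, 9.29 and 9.03 in AS. In SA it was nearly constant at 7.98, 8.0, 8.02 and 7.99, below every AA value, and SS read 7.88, 8.08 and 7.81. The groups exposed to SHS before birth thus lay lowest whether or not adult SHS followed. The interaction was -0.98 ± 0.13 (limma, adjusted p = 0.00737), and the in-utero difference in adults kept in air, -0.31 ± 0.08, had an adjusted p of 0.664.

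Dusp6, the cytoplasmic phosphatase that switches off the kinase ERK, had the smallest blocked response. Its values were 12.34, 12.41, 12.41 and 12.38 in AA, 12.82, 12.86 and 12.92 in AS, 12.20, 12.13, 11.85 and 12.15 in SA and 11.91, 11.85 and 11.97 in SS. The order was AS above AA above the overlapping SA and SS. The adult effect was 0.48 ± 0.08 after in-utero air and -0.18 ± 0.08 after in-utero SHS, with an interaction of -0.66 ± 0.11 (limma, adjusted p = 0.0325).

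Just outside the threshold, Jun, Taf15 and Klf11 came next among genes of this form. Jun, a subunit of AP-1, had an interaction of -0.58 ± 0.11 (limma, adjusted p = 0.055) and read 12.64 to 12.84 in the AS lungs against 12.10 to 12.29 in AA, 11.93 to 12.16 in SA and 11.96 to 12.11 in SS. Taf15, an RNA-binding protein of the FET family, was low in AS at 7.56 to 7.97 against 8.28 to 8.73 in AA, 8.18 to 8.63 in SA and 8.50 to 8.66 in SS, and its interaction of 0.99 ± 0.19 had an adjusted p of 0.0553 in limma. A dimmer probe set of Taf15 gave 0.21. Klf11, a repressor of the Kruppel-like family, had an interaction of 0.78 ± 0.15 (adjusted p = 0.0609).

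Reversed responses were found in 2 transcription factors, which moved in opposite directions. Hlx, a homeobox factor of visceral mesenchyme and of type 1 helper T cells, rose in AS and fell in SS. It read 9.20, 9.29, 9.56 and 9.29 in AA, 9.75, 10.07 and 9.90 in AS, 9.68, 9.96, 9.77 and 9.43 in SA and 9.03, 9.0 and 8.59 in SS. All AS values lay above all AA values, and SS lay below every other sample. Hlx was the 1 gene that passed the threshold in both adult comparisons with opposite signs: 0.57 ± 0.13 after in-utero air (limma, adjusted p = 0.0499) and -0.84 ± 0.13 after in-utero SHS (adjusted p = 0.00638). Its interaction was -1.41 ± 0.19 (adjusted p = 0.00822), and SA lay 0.37 above AA with an adjusted p of 0.726.

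Klf10, a zinc finger repressor that TGF-beta induces early, moved the other way. Its log2 values were 9.66, 9.86, 9.27 and 9.66 in AA, 8.84, 8.65 and 9.04 in AS, 9.61, 9.39, 9.79 and 9.51 in SA and 10.12, 9.89 and 10.35 in SS. AS lay below and SS above every other sample, with AA and SA between them and overlapping. The adult effect was -0.77 ± 0.14 after in-utero air (limma, adjusted p = 0.0195) and 0.54 ± 0.14 after in-utero SHS (adjusted p = 0.0777), and the interaction was 1.31 ± 0.20 (adjusted p = 0.017).

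Of the genes of reversed form outside the threshold, the 6 with the lowest p were Pou4f1, Egfr, Rapgef3, Agfg2, Hic1 and Ier3. Their interactions were -0.76, 0.61, 0.64, 0.96, -0.53 and -1.04, with adjusted p in limma from 0.0505 to 0.0702. Egfr, the receptor of epidermal growth factor, read 8.67 to 9.04 in AS and 9.27 to 9.35 in SS, with AA at 9.11 to 9.26 and SA at 8.95 to 9.10. These are values of the brightest of its 7 probe sets. The others gave smaller interactions, -0.02 to 0.31 and 0.07 in the next brightest, and the median value of all 7 in each sample gave 0.08. Rapgef3, the cAMP sensor Epac, was likewise lowest in AS, at 8.72 to 9.03, and highest in SS, at 9.46 to 9.55, and its 4 other probe sets gave interactions of 0.20 to 0.58. The second probe sets of Agfg2 and Pou4f1 lay near 0, at 0.08 and 0.07. The threshold fell between Fkbp14, the last gene inside it (adjusted p = 0.045), and Pou4f1, a dim probe set with a mean of 4.35 (adjusted p = 0.0505).

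**Figure D2:**
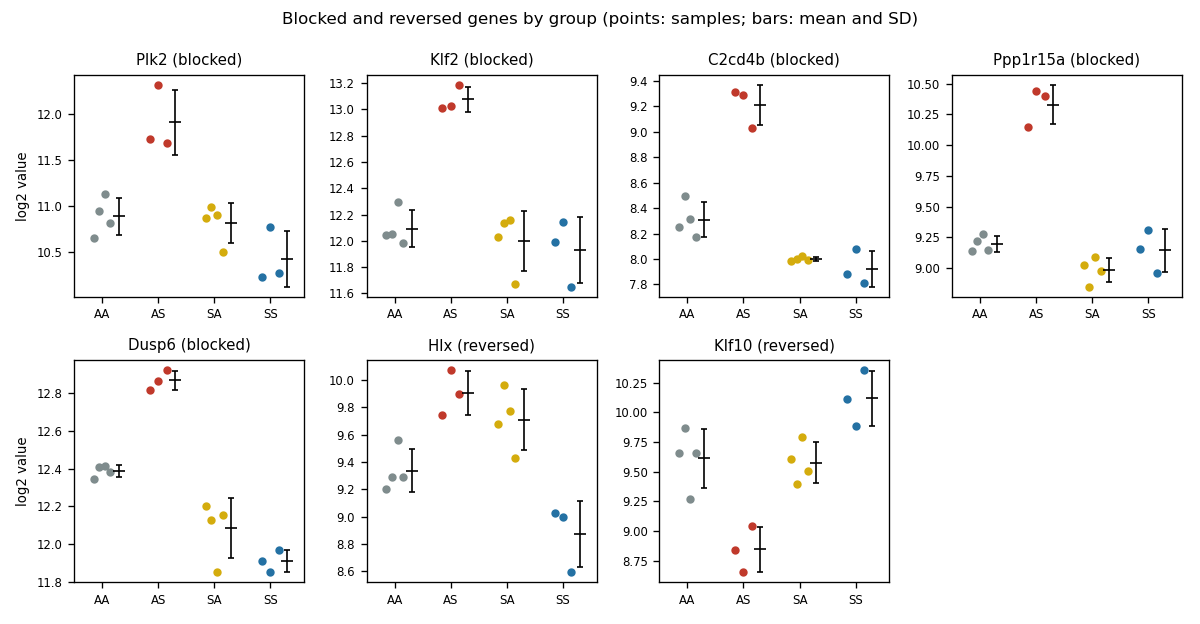
Log2 values of the 5 blocked and 2 reversed genes in each sample of AA, AS, SA and SS, with bars for the group mean and SD; each panel has its own vertical axis, which does not start at 0. AS lies above every other sample in the blocked genes, while in Hlx and Klf10 the SS values lie at the opposite end from AS.

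Gained responses made up 14 of the 21 genes, 9 that fell and 5 that rose in SS relative to SA. The sorting asked that SS minus SA be the larger effect. It passed the threshold in 14 of 14, against 1.91% of all genes (limma). AS minus AA passed in 0 of 14, against 1.12% of all genes. SS values lay outside the range of all other samples in 14 of 14, against 2.77% of all genes, and SS and SA alone did not overlap in 18.9% of all genes, which describes the sorting. The rises ran from 1.45-fold in Plxna2 to 2.53-fold in Creb5, and the falls from 1.36-fold in Cdkn2c to 2.32-fold in Prdm8.

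Creb5, a leucine zipper factor that binds the cAMP response element, had the largest interaction in size of the 21 genes, 1.68 ± 0.22 (limma, adjusted p = 0.00737). It read 7.25, 7.58, 7.25 and 7.04 in AA and 7.06, 6.87 and 6.87 in AS, then 7.18, 7.06, 7.14 and 7.56 in SA and 8.27, 8.51 and 8.93 in SS. SS lay above all others, and AS lay at the low end, overlapping AA. The adult effect was 1.34 ± 0.16 after in-utero SHS and -0.35 ± 0.16 after in-utero air (adjusted p = 0.23). Its other 3 probe sets gave interactions of -0.43, 0.97 and 1.15, and only the last of these, the dimmest, also passed. In the first of these, the next brightest, AS minus AA was 1.03 and SS minus SA 0.59, so the larger response was in AS. In the others SS minus SA was the larger in size.

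The other 4 genes that rose in SS act in unlike pathways. Fkbp14, a prolyl isomerase of the endoplasmic reticulum that helps collagen to fold, read 8.92, 8.63, 8.67 and 9.02 in SA and 9.62, 9.87 and 9.64 in SS, while AA ran from 8.77 to 9.18 and AS from 8.93 to 9.01. Its interaction was 0.87 ± 0.16 (limma, adjusted p = 0.045), and a second, dim probe set gave -0.16. Dusp16, a phosphatase of the stress kinases JNK and p38, read 10.67, 10.58, 10.72 and 10.57 in SA and 11.45, 11.41 and 11.34 in SS. After in-utero air the groups overlapped, with AA at 10.49 to 10.84 and AS at 10.57 to 10.74. The interaction of Dusp16 was 0.74 ± 0.12 (limma, adjusted p = 0.0197), but a dimmer probe set gave -0.66 (adjusted p = 0.679). At that probe set AS minus AA was 0.91 and SS minus SA 0.25, so the larger response was in AS.

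Ampd3, an AMP deaminase of the purine nucleotide cycle, read 10.10, 9.72, 9.80 and 9.95 in SA and 10.54, 10.67 and 10.63 in SS, above AA at 10.02 to 10.21 and AS at 9.92 to 10.07. Its interaction was 0.82 ± 0.12 (limma, adjusted p = 0.015). Plxna2, a plexin that serves as a semaphorin receptor, read 9.62, 9.60, 9.55 and 9.77 in SA and 10.09, 10.10 and 10.32 in SS, with AA at 9.60 to 9.82 and AS at 9.23 to 9.63. Its interaction was 0.78 ± 0.14 (adjusted p = 0.0432), and its 3 other probe sets gave 0.35, 0.40 and 0.45, all of the same sign and none past the threshold.

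Among the 9 genes that fell were 4 regulators of transcription. Prdm8, a PR domain protein of the histone methyltransferase family, read 6.47, 6.96, 6.77 and 6.83 in AA, 6.89, 6.91 and 6.43 in AS, 7.08, 7.35, 7.12 and 7.17 in SA and 6.02, 6.04 and 5.83 in SS. SS lay lowest and SA highest, with AA and AS overlapping between them, and the interaction was -1.20 ± 0.18 (limma, adjusted p = 0.015). Hhex, a homeobox factor of liver, endothelial and blood progenitors, read 9.29, 9.26, 9.34 and 9.14 in AA, 9.19, 9.45 and 9.03 in AS, 9.31, 9.80, 9.59 and 9.48 in SA and 8.42, 8.36 and 8.68 in SS. The 3 SS lungs again lay lowest, and the interaction of Hhex was -1.03 ± 0.17 (adjusted p = 0.0283).

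Tox3, a high mobility group protein of calcium-dependent transcription, had SS values of 9.01, 9.03 and 8.82 against 9.93, 10.05, 9.97 and 9.87 in SA, 9.42 to 9.87 in AA and 9.36 to 9.81 in AS. Its interaction was -0.94 ± 0.16 (limma, adjusted p = 0.037). Zfp608, a zinc finger protein, had the lowest interaction p of the 21 genes, with 9.99, 9.70, 9.96 and 9.82 in AA, 10.01, 10.04 and 10.09 in AS, 9.99, 10.06, 10.04 and 10.05 in SA and 9.42, 9.29 and 9.39 in SS. SS lay below every other sample, AS lay just above AA, and the interaction was -0.85 ± 0.10 (adjusted p = 0.00661). A second probe set of Zfp608 gave -0.50 (adjusted p = 0.297).

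Cxcr4, the receptor through which Cxcl12 holds leukocytes and their precursors in place, read 10.68, 10.75, 10.53 and 10.44 in AA, 10.81, 10.68 and 10.45 in AS, 10.57, 10.97, 10.83 and 11.00 in SA and 9.71, 9.72 and 9.91 in SS. AA, AS and SA overlapped, and SS lay 2.09-fold below SA. The adult effect was 0.05 ± 0.11 after in-utero air and -1.06 ± 0.11 after in-utero SHS, and the interaction was -1.11 ± 0.16 (limma, adjusted p = 0.0142). Nrros, a transmembrane protein of myeloid cells that holds latent TGF-beta at their surface, read 10.33, 10.22, 10.28 and 10.04 in AA, 10.32, 10.27 and 10.40 in AS, 10.06, 10.31, 10.22 and 10.12 in SA and 9.40, 9.40 and 9.40 in SS. The SS lungs were equal to the second decimal and lay below the rest, and the interaction of Nrros was -0.88 ± 0.11 (adjusted p = 0.00737).

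Hs3st1, the sulfotransferase that makes the antithrombin site of heparan sulfate, read 8.92, 9.19, 9.10 and 8.87 in AA, 8.93, 9.12 and 9.20 in AS, 9.35, 9.50, 9.30 and 9.22 in SA and 8.54, 8.42 and 8.52 in SS. SA lay highest and SS lowest, and the interaction was -0.91 ± 0.13 (limma, adjusted p = 0.0142). Stk4, the Hippo pathway kinase also called Mst1, ran from 11.67 to 11.90 in AA, 11.63 to 11.86 in AS and 11.78 to 12.04 in SA, and read 11.18, 11.18 and 11.18 in SS. Its interaction was -0.70 ± 0.12 (adjusted p = 0.0295), and both of its other probe sets lay close to that, at -0.69 and -0.57, without passing.

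Cdkn2c, an inhibitor of the cyclin D kinases, had the smallest interaction in size, -0.48 ± 0.08 (limma, adjusted p = 0.0278). It also had the smallest spread within groups, with SA at 10.79, 10.83, 10.79 and 10.81, SS at 10.34, 10.37 and 10.37, AA at 10.42 to 10.55 and AS at 10.50 to 10.54. Here SA stood above every other sample and SS below every other sample. It was the 1 gained gene in which SS minus AS did not pass, at -0.15 ± 0.06 (adjusted p = 0.273).

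**Figure D3:**
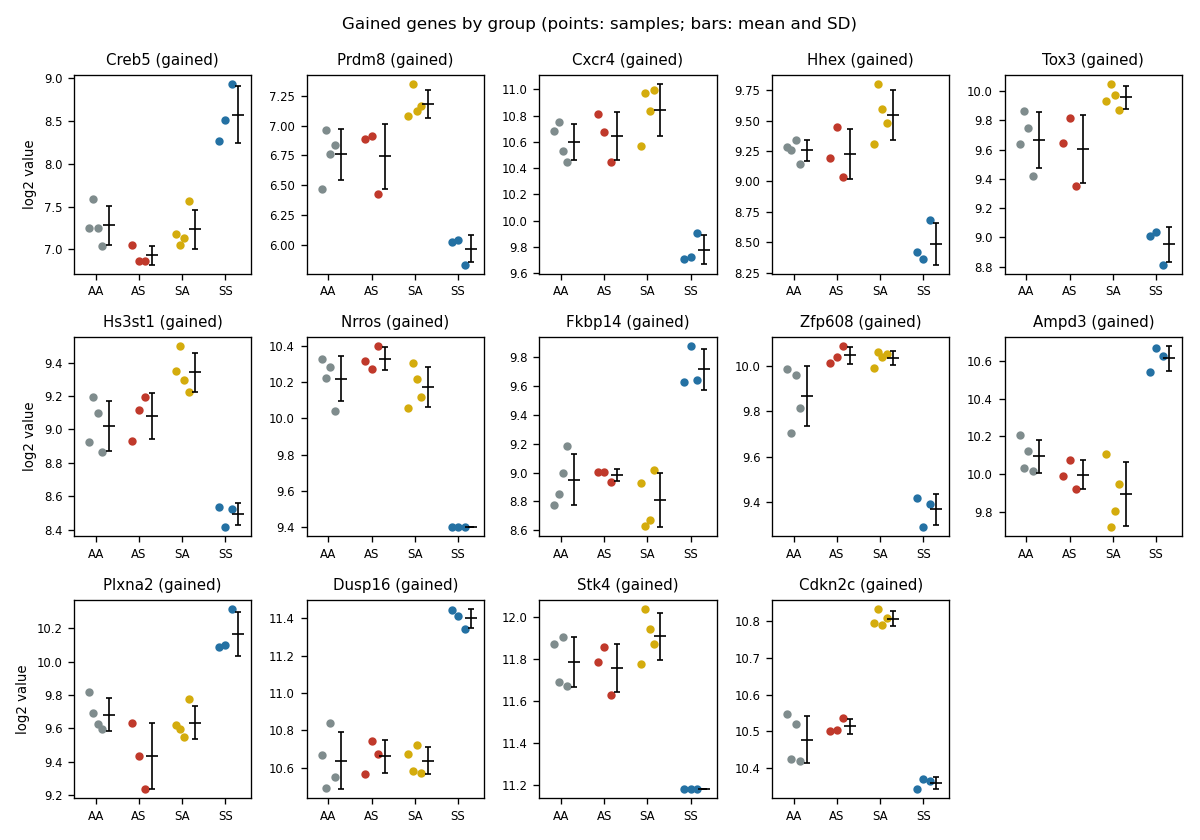
Log2 values of the 14 gained genes in each sample of AA, AS, SA and SS, with bars for the group mean and SD; each panel has its own vertical axis, which does not start at 0. The 3 SS samples lie outside the range of all other samples in every panel, above it in Creb5, Fkbp14, Ampd3, Plxna2 and Dusp16 and below it in the other 9.

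Read the other way, the interaction is the in-utero difference among adults exposed to SHS less that among adults in air. SS minus AS passed the threshold in 20 of the 21 genes, against 0.764% of all genes. SA minus AA passed in 0 of the 21, against 0% of all genes. SS minus AS was larger in size than SA minus AA in 20 of 21. In 15 of 21 the in-utero difference had opposite signs in the 2 kinds of adult. The shares of all genes with a larger SS minus AS or with opposite signs were not counted. In Prdm8, Tox3, Hs3st1 and Cdkn2c every SA value lay above every other sample, a form that was not counted over all genes. In these genes SA minus AA was 0.42, 0.29, 0.32 and 0.33 while SS minus AS was -0.78, -0.65, -0.59 and -0.15. These differences share all 4 groups with the interaction that chose the genes and are given as a description.

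Over the 59 probe sets of any name that passed, 37 were higher, 21 had no symbol or several, 17 were not the brightest of their gene and 21 were. Of the 21 genes, 14 have a single probe set. In 4 of the other 7, Plk2, Creb5, Fkbp14 and Dusp16, at least 1 further probe set had the opposite sign or lay near 0, and in Zfp608, Plxna2 and Stk4 all had the sign of the brightest. Probe sets can report different transcript ends, and which of them stands for the gene's mRNA was not tested.

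Leaving out 1 sample at a time gave 14 further fits, and the sign of all 21 interactions was kept in each. C2cd4b, Ppp1r15a, Hlx, Creb5, Hs3st1, Nrros and Zfp608 passed in 14 of 14, and their highest adjusted p in limma was 0.0473, in Hs3st1 without SS replicate 3. Cxcr4 passed in 13, with an adjusted p of 0.0516 without the averaged SS replicates 1 and 2. Prdm8 passed in 12 (not without AS replicate 2 or SS replicate 4), Ampd3 in 12 (not without SS replicate 3 or 4), Klf10 in 11 (not without AS replicate 2, SS replicates 1 and 2 or SS replicate 4) and Dusp16 in 10 (not without SA replicate 2 or any SS sample), with highest adjusted p of 0.0603, 0.0603, 0.062 and 0.0862. Hhex passed in 8 fits, not without AA 1, AA 2, AS 2, SA 3, SS 1 and 2 or SS 3 (adjusted p up to 0.104), and Stk4 in 7, not without AA 2, AS 2, SA 2, SA 3 or any SS sample (up to 0.101), where the number is the replicate. The least stable calls were Plk2, Tox3 and Cdkn2c (5 of 14 each), Klf2 and Dusp6 (4 each) and Fkbp14 and Plxna2 (3 each), where the highest adjusted p was 0.13, in Fkbp14 without SS replicate 3. Each of these 7 lost its call without AS 2, SA 2 or the averaged SS pair, among others. Plk2 passed only without AA 3, AS 1, the AS pair, SA 4 or SS 3, Tox3 only without AA 2, AA 4, the AS pair, SA 1 or SA 4, and Cdkn2c only without AA 1, AS 1, the AS pair, SA 1 or SA 4. Klf2 passed only without AA 3, AS 1, SA 4 or SS 3, Dusp6 only without AS 1, the AS pair, SA 1 or SA 3, Fkbp14 only without AA 1, SA 1 or SA 4, and Plxna2 only without AA 4, AS 1 or SA 4. The values of Plk2 ran from -1.59 to -1.21, Klf2 from -1.16 to -0.91, Tox3 from -1.07 to -0.84 and Fkbp14 from 0.79 to 0.94.

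**Figure D4:**
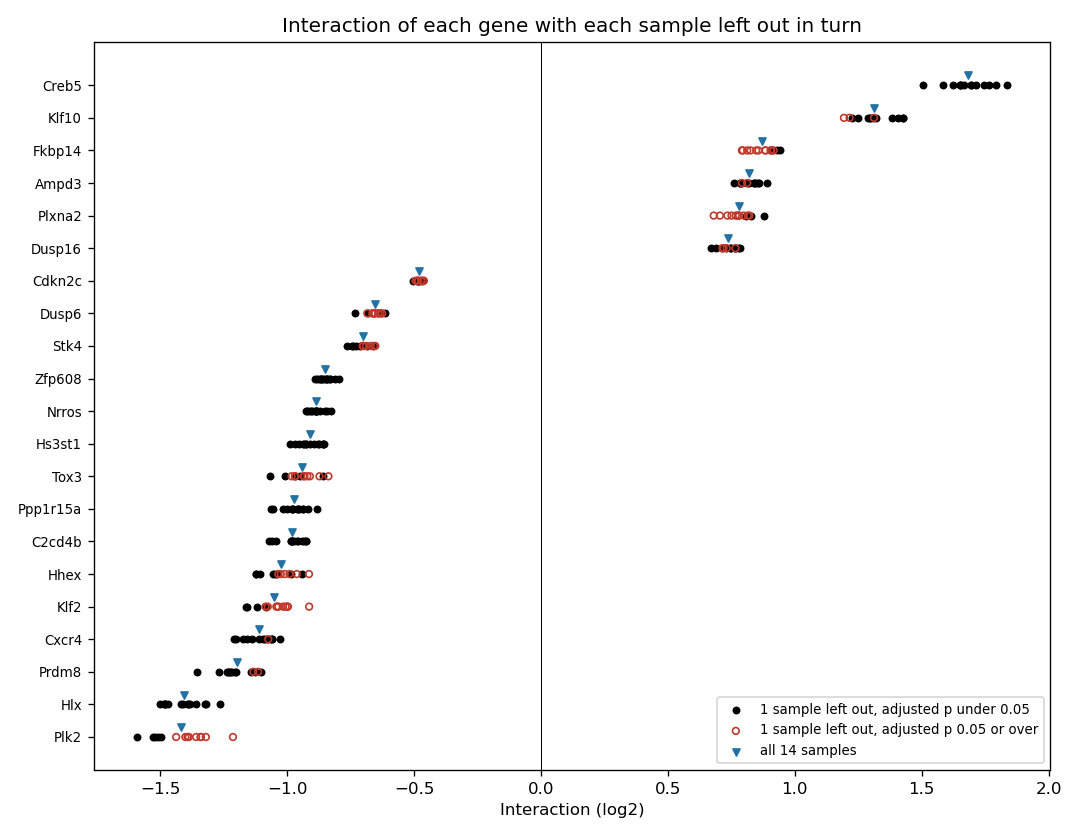
Interaction on the log2 scale (horizontal axis) of each of the 21 genes with 1 sample left out in turn; filled points passed an adjusted p of 0.05 in limma, open points did not, and triangles mark the fit of all 14 samples. No point crosses 0, and Creb5, Hlx, Ppp1r15a, C2cd4b, Hs3st1, Nrros and Zfp608 have filled points only.

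The number of genes that passed ran from 9 without SS replicate 4 to 39 without the averaged AS replicates 3 and 4. It was 11 when AS replicate 2 or the averaged SS replicates were left out, 12 when SS replicate 3 or SA replicate 2 was, and 13 when SA replicate 3 was. Counting the near-identical arrays as separate samples raised it to 91 genes, which included the 21.

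Gene lists place the 21 genes among their pathways. The lists were chosen with earlier results of these data known, so their shares beside those of all genes are a description. Of 25 immediate early genes, 19 had an interaction below 0 (55.7% of all genes did), with a median of -0.78 against -0.02 over all genes. Among the 25, 1, Klf2, passed (0.115% of all genes did). Adult SHS raised 8 of the 25 past the threshold in AS (median 1.01), where 0.594% of all genes rose, and 2 in SS (median 0.24), where 0.874% of all genes rose. It lowered 1 of them in SS, where 1.04% of all genes fell. The widest differences were in Egr3, a zinc finger factor induced by growth signals, at -1.59 ± 0.88, and Nr4a1, an orphan nuclear receptor, at -1.32 ± 0.68, and neither passed (limma, adjusted p = 0.632 and 0.6). Relative to the mean of AA, the list averaged 0.99, 1.48 and 0.37 in the AS samples, -0.62 to -0.40 in SA and -0.55 to -0.05 in SS. AS lungs varied most, AS replicate 2 was highest, and the list median ran from -1.0 without AS replicates 3 and 4 to -0.52 without AS replicate 2.

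The MAP kinase feedback list, phosphatases and Sprouty proteins that damp ERK signalling, had a median interaction of -0.31 over 14 genes. Of these, 11 lay below 0 (55.7% of all genes did), and 1, Dusp6, passed the threshold (0.115% of all genes did). Adult SHS raised 6 of the 14 in AS (median 0.36, against 0.594% of all genes) and 1 in SS (median -0.03, against 0.874%). Spry4 gave -1.05 ± 0.28 and Dusp2 -0.83 ± 0.17 (limma, adjusted p = 0.181 and 0.0702). The list averaged 0.34 to 0.53 in AS relative to the AA mean, above -0.07 to 0.14 in AA, -0.13 to -0.06 in SA and -0.15 to 0.09 in SS.

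Glucocorticoid-induced genes leaned the other way. Their median interaction was 0.63 over 19 genes, 15 of them above 0 (44.3% of all genes were), and 0 passed in limma. Adult SHS raised 2 of the 19 in AS (median 0.29, against 0.594% of all genes) and 11 in SS (median 1.01, against 0.874%). Zbtb16, a zinc finger factor that glucocorticoids induce strongly, gave 1.97 ± 0.74 and Fam107a, an actin-binding stress gene, 1.72 ± 0.34 (limma, adjusted p = 0.406 and 0.0691). The list averaged 0.69 to 0.79 in SS relative to the AA mean, above 0.20 to 0.44 in AS, -0.23 to 0.25 in AA and -0.61 to 0.01 in SA. Its median stayed between 0.50 and 0.73 with any 1 sample left out.

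Among 15 chemokine receptors the median interaction was -0.12 (-0.23 without AS replicates 3 and 4). Of these, 12 lay below 0 (55.7% of all genes did) and Cxcr4 alone passed (0.115% of all genes did). Cxcr5, the receptor that takes B cells to follicles, gave -1.02 ± 0.37 (limma, adjusted p = 0.379). Of 15 p53 targets, with a median of 0.07 (0.01 without AS replicate 2), Plk2 alone passed (0.115% of all genes did). Cdkn1a, the p53-induced inhibitor of the cell cycle, gave 0.91 ± 0.38 (limma, adjusted p = 0.475). Plk2 and Cdkn1a thus had interactions of opposite sign. The lists of 44 pathways and cell types held 583 measured genes, and in the lists not named here 0 genes passed.

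**Figure D5:**
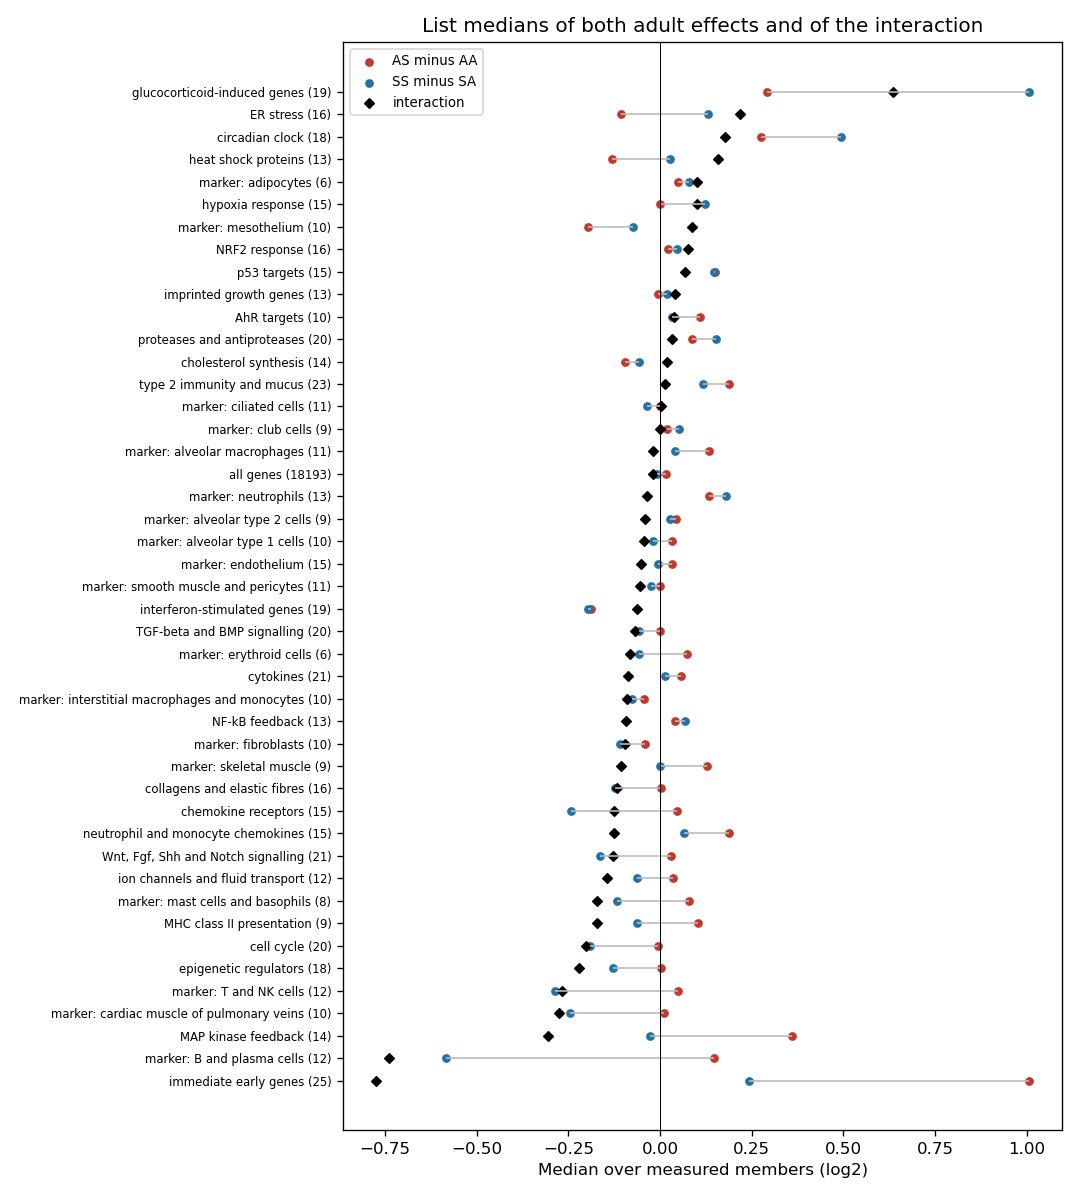
Median over the measured members of each gene list (number in brackets) of the adult effect after in-utero air (AS minus AA), the adult effect after in-utero SHS (SS minus SA) and the interaction, on the log2 scale. Immediate early genes have the lowest median interaction, -0.78, and glucocorticoid-induced genes the highest, 0.63, with all genes at -0.02.

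Lymphocyte markers read low in the same SS lungs as the genes that fell there, of which lymphocytes are known to express Cxcr4, Hhex and Stk4. Of 12 measured B and plasma cell markers, 10 had an interaction below 0 (55.7% of all genes did). Their median was -0.74 and 0 passed the threshold in limma. Ms4a1, the B cell surface protein CD20, gave -1.23 ± 0.48 and Cd79a, a chain of the B cell receptor, -1.13 ± 0.30 (adjusted p = 0.433 and 0.181). Relative to the AA mean the list averaged -0.93 to -0.47 in SS, -0.29 to 0.13 in SA, -0.28 to 0.24 in AS and -0.37 to 0.38 in AA, so the SS lungs lay below every other sample. Its median ran from -0.91 without AS replicates 3 and 4 to -0.55 without AA replicate 4.

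All 12 measured T and NK cell markers had an interaction below 0, with a median of -0.27 (-0.37 without AS replicate 2, -0.19 without AS replicate 1) and 0 past the threshold. That list averaged -0.36 to -0.30 in SS, below -0.10 to 0.10 in SA, -0.15 to 0.22 in AS and -0.18 to 0.21 in AA. Interactions below 0 were not particular to lymphocyte markers, and 55.7% of all genes had one. They made up 8 of 8 mast cell and basophil markers (median -0.17) and 9 of 10 of cardiac muscle of pulmonary veins (median -0.28). Mesothelial markers leaned the other way, with 9 of 10 above 0 (44.3% of all genes were). The part of lymphocyte number in the values of Cxcr4, Hhex and Stk4 was not tested.

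The markers of interstitial macrophages and monocytes were also low in the SS lungs, in which the myeloid gene Nrros fell. The list averaged -0.29 to -0.22 in SS relative to the AA mean, below every other sample, with -0.18 to 0.10 in SA, -0.10 to -0.07 in AS and -0.04 to 0.07 in AA. Of its 10 measured genes 7 had an interaction below 0 (55.7% of all genes did), and 0 passed in limma. Their median was -0.09 and turned to 0.04 without AS replicates 3 and 4. Alveolar macrophage markers, at 0.02 to 0.05 in SS, lay within the range of the other groups. The part of myeloid cell number in the values of Nrros was not tested.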

How the data were processed

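Total RNA of left lungs had been hybridised to 16 Affymetrix arrays. The authors deposited log2 values for each probe set, a scale taken from their range (2.40 to 15.1). How they were background-corrected and normalized is not given in the sources used. Per the submitters' processing notes, limma was used, without a version. No build is named for the array, so it is given no coordinates. Of 45101 probe sets, 64 controls were left out and 45037 tested. Symbols came from the platform annotation, updated through gene IDs for 34741 probe sets, and 34945 had 1 symbol.

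The main model had 1 mean per group over 14 samples, fitted by limma 3.58.1 (lmFit, contrasts.fit and eBayes, R 4.3.3) with 10 residual degrees of freedom and no covariate. Two-sided p-values from all tested probe sets received a Benjamini-Hochberg adjustment. The script was checked on simulated data. Errors after ± are standard errors. For arrays, their number limits the precision. The p-values measure the spread between these samples.

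The genes and the 44 lists (583 of 634 genes matched) were chosen with earlier results of these data known. Named genes were the 10 with the largest interaction in each class, the next by p where a class had under 8, and list members past the threshold with the 2 largest interactions, for lists with a median of at least 0.3 in size or a member past it; the 4 further gained genes complete the set. List values are relative to the AA mean. The alternatives tried were all 16 arrays, with and without a replicate block, 1 array of each pair left out, other normalizations, filters, weights and moderation, other sorting rules, and each sample left out.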

Additional observations from a re-analysis of the deposited data

Results flagged for a closer look

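The adult response differed between mice with and without in-utero SHS, by the test of the interaction itself (limma, adjusted p under 0.05), in 21 genes. After in-utero SHS the response was more negative, on the log2 scale, in the blocked genes Plk2 (-1.42), Klf2 (-1.05), C2cd4b (-0.98), Ppp1r15a (-0.97) and Dusp6 (-0.66), in the reversed gene Hlx (-1.41) and in the gained genes Prdm8 (-1.20), Cxcr4 (-1.11), Hhex (-1.03), Tox3 (-0.94), Hs3st1 (-0.91), Nrros (-0.88), Zfp608 (-0.85), Stk4 (-0.70) and Cdkn2c (-0.48). It was more positive in the reversed gene Klf10 (1.31) and in the gained genes Creb5 (1.68), Fkbp14 (0.87), Ampd3 (0.82), Plxna2 (0.78) and Dusp16 (0.74).

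Of 60 groups of 4 samples in the genes named, 1 held a sample far from the others: AA replicate 2 read 3.96 for Pou4f1, a dim probe set that did not pass, against 4.18 to 4.21 in the other AA samples. Chance alone marks about 1 in 20 such groups.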

How the results depend on the processing

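The 21 interactions kept their sign under every alternative run, as did those of the 9 genes named just outside the threshold. The genes were chosen for their interaction in these same samples, which favours a kept sign. Sizes changed most with the median of all probe sets of a gene. There the interaction was 0.04 in Dusp16, 0.36 in Fkbp14 and 0.43 in Creb5. Counts of genes past the threshold moved more. With all 16 arrays as separate samples, AS minus AA gave 1277 genes, SS minus SA 630, SS minus AS 810 and the interaction 91 (19 blocked, 29 reversed, 43 gained). The same arrays with the replicate number as a block (replicate block) gave 1232, 577, 796 and 120 (31, 36 and 53), but the numbers do not pair the samples: same-numbered samples correlated from -0.24 to 0.37 over 24 pairs, 10 of them above 0.1, and 5 of 16 arrays correlated best with their own number. Array weights gave 1000 genes in SS minus SA, 417 in SS minus AS and 82 in the interaction (19 blocked, 14 reversed, 49 gained), with the lowest weight, 0.265, on AS replicates 3 and 4. A mean-variance trend gave 36 in the interaction (8 blocked, 7 reversed). In the unmoderated test AS minus AA gave 81, SS minus SA 169, SA minus AA 1, SS minus AS 42 and the interaction 3 (Nrros, Zfp608 and Cdkn2c, 0 blocked, 0 reversed, 3 gained). Of the 21 genes, 21 also passed with all 16 arrays, the block, the weights, the trend, a second quantile normalization and median centring. The same 21 passed with means under 6 left out and with 1 probe set per gene, and 20 with 1 array of each pair left out. With the median of all probe sets of a gene 15 passed. Only the 7 genes with a second probe set could change in value there, and of these Zfp608 alone passed. Plk2, Creb5, Fkbp14, Plxna2, Dusp16 and Stk4 did not.

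Reversed genes numbered 5 after quantile normalization, 6 after centring, 6 with means under 6 left out, 5 with 1 probe set per gene, 7 where an opposite response of 0.25 of the larger sufficed (then 3 blocked), 0 where 0.75 was asked and 1 when sorted by which adult effect passed. With 1 sample left out, AS minus AA gave 47 to 300 genes, SS minus SA 76 to 478, SA minus AA 0, SS minus AS 46 to 164 and the interaction 9 to 39, of which 2 to 16 were blocked, 1 to 7 reversed and 6 to 22 gained. Fewer samples were fitted there, and otherwise the cause was not tested. Dim probe sets were kept without a detection call, and 3 or 4 samples a group limit the precision.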

Other observations

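Lists in which no gene passed the interaction held further values. Of 16 endoplasmic reticulum stress genes, chaperones and factors of the unfolded protein response, 15 had an interaction above 0 (44.3% of all genes did). Their median was 0.22, against -0.02 over all genes. The medians were -0.11 in AS minus AA and 0.13 in SS minus SA, where Herpud1, a factor of protein degradation at the endoplasmic reticulum, rose by 0.48 (limma, adjusted p = 0.00719). Left-out samples moved the list median from 0.19 to 0.24.

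Epigenetic regulators had a median interaction of -0.22 over 18 genes. That median ran from -0.25 to -0.16 with 1 sample left out and from -0.23 to -0.06 under the other alternatives. Adult SHS lowered 4 of the 18 genes after in-utero SHS, where 1.04% of all genes fell. In SS minus SA, Tet1, an enzyme that oxidises methylcytosine, stood at -0.72 and Dnmt3a, a DNA methyltransferase, at -0.37 (limma, adjusted p = 0.00471 and 0.0338). Their interactions were -0.61 ± 0.16 and -0.36 ± 0.11 (adjusted p = 0.168 and 0.296), so the difference between both responses did not pass. Circadian clock genes had a median interaction of 0.18, with 14 of 18 above 0 (44.3% of all genes were).

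A single lung stood apart in lists that hold no member. SA replicate 4 averaged 0.85 above the AA mean over 20 cell cycle genes, where the other SA lungs lay at -0.03 to -0.01, and 1.34 over 6 erythroid markers. Without it, 25 genes passed the interaction, 20 of them among the 21.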
